A study of Mus musculus with 8 samples.

Results

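The 10 genes described here (Glul, Slc1a3, Kcnj10, Aqp4, Car14, Sox9, Sox8, Dkk3, Apoe and Clu) are genes that retinal Müller glial cells switch on or keep on as they mature. They were taken by gene symbol from the 54532 genes of the count table, 1 row for each symbol. No measured value entered the rule, but the genes were chosen with earlier results of these data known. All but Aqp4 had enough counts to be tested, which leaves 9 of the 17998 genes in the fit.

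The study deleted Mettl3, which encodes the catalytic subunit of the enzyme complex that writes N6-methyladenosine (m6A) into mRNA, in the mouse retina. RNA-seq was carried out on 8 retinal samples labelled postnatal day 7, while the study's methods give an age 1 day younger. The 4 mutant samples came from Six3-Cre+; Mettl3 floxed/floxed mice (Mettl3-CKO) and the other 4 from their littermates (control), whose Cre and floxed alleles are not given in the sources used here. The Six3 promoter drives Cre in retinal progenitors, so that neurons and Müller glia, which descend from them, carry the deletion where Cre was active, whereas microglia, vessels and astrocytes come from outside the retina. The labels do not say whether animals were pooled, and p-values measure the spread between these samples.

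Müller glia are the main glia of the retina and are born from late progenitors, after most neurons. They take up glutamate and potassium released by neurons, move water and acid equivalents towards the vessels and the vitreous, and seal the inner and outer borders of the tissue. Immature Müller glia share much of their expression with progenitors, and genes for uptake, recycling and channel proteins rise as the cells mature. None of the 10 genes belongs to Müller glia alone in a whole retina: Slc1a3 and Sox9 are also made by astrocytes and progenitors, and Apoe by microglia.

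The libraries held between 16227095 and 20281517 counts, so that a count of 3 in a library corresponded to 0.148 to 0.185 CPM (counts scaled to a common library total), a limit that covers counting error only. All other CPM values were also scaled by TMM, with factors of 0.969 to 1.01. Values of single samples are given in the order of replicates 1 to 4. Mettl3 itself stood at 21.1, 29.6, 21.3 and 24.2 CPM in the 4 mutant samples and at 33.7, 32.4, 29.3 and 29.2 CPM in the 4 control samples. Mettl3-CKO replicate 2 thus lay within the control range, and the fitted log2 fold change of Mettl3 was -0.38 ± 0.12 (SE), with an adjusted p of 0.0603 (Benjamini-Hochberg) in the quasi-likelihood test of edgeR, the test used throughout. The counts cover the whole gene and not the deleted part alone, so they are a weak check of the labels. Control replicate 1 stood apart: mitochondrial transcripts made up 2.38% of its library, compared with 1.69% to 1.76% for control replicates 2 to 4, and 1.77% to 2.26% in Mettl3-CKO. Control replicate 4 stood apart in lens crystallin and other lens markers, which summed to 3212 CPM against 6.96 to 68.7 CPM in the other controls. Rod markers, which define the tissue, summed to 3177 to 4976 CPM in controls and 1738 to 3282 CPM in Mettl3-CKO. Leaving out control replicate 1 was part of the rule for these genes. Fits without it are given beside those over all samples for the 10 genes and for the lists of related genes whose counts they changed.

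Across the 10 genes, 1 was higher in Mettl3-CKO retinas (Glul), 0 were lower, 8 did not pass the test at an adjusted p of 0.05 and Aqp4 was not tested. Of the 9, 0 were lower at an unadjusted p under 0.05 in edgeR, and DESeq2 and limma voom with sample weights also called 0 as lower. Of all 17998 tested genes, 2005 were lower at an unadjusted p under 0.05 in edgeR. DESeq2 called 1072 of them as lower and limma voom 1568, so 0 among 9 genes cannot be set apart from these counts. Over all tested genes, edgeR called 10.5% at an adjusted p under 0.05, 6.49% as higher and 4.05% as lower. A single call among 9 genes cannot be set apart from that background. The edgeR counts of each list below are to be read beside the same shares. The median log2 fold change of the 9 tested genes was -0.02, beside -0.01 over all tested genes. Summed over the 10 genes, the level was 1773 to 2022 CPM in controls and 1984 to 2066 CPM in Mettl3-CKO, and the groups overlapped.

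**Figure D1:**
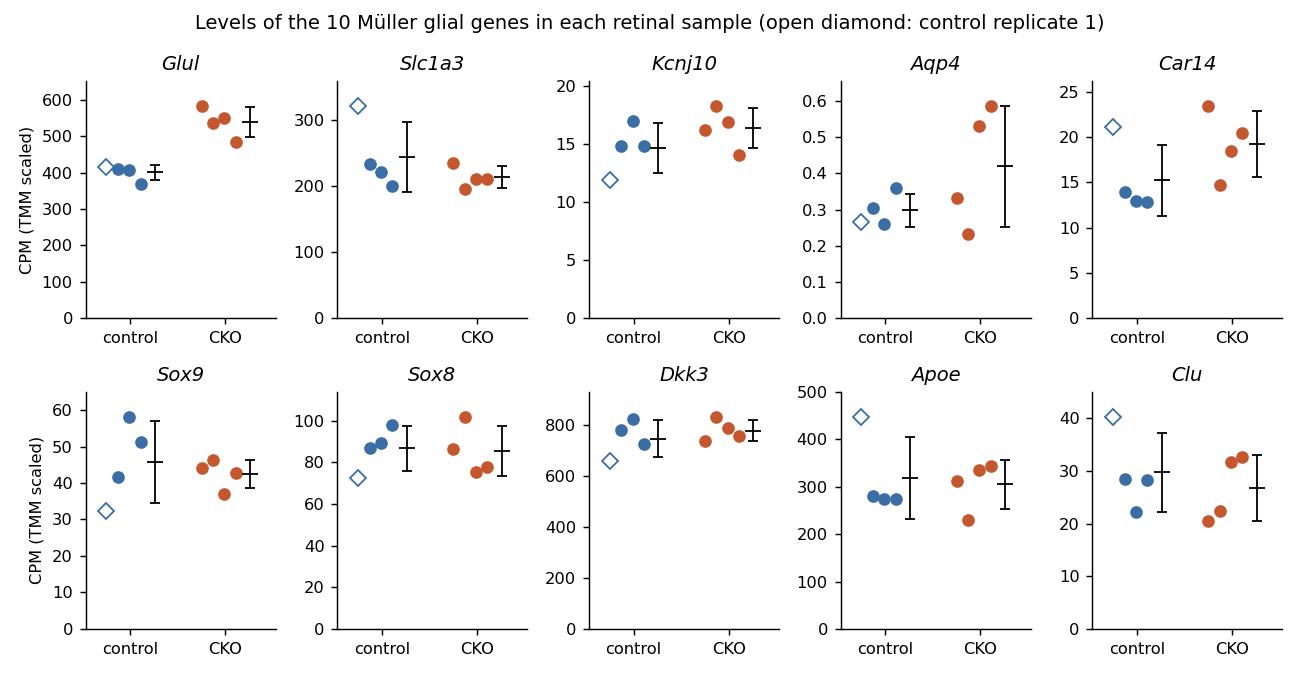
Level of each of the 10 genes in CPM after TMM scaling, the y axis starting at 0, in control (blue) and Mettl3-CKO (orange) retinas, with 1 point per sample, the open diamond for control replicate 1 and black bars for the mean ± SD of 4 samples. Only Glul has all Mettl3-CKO samples above all controls, while control replicate 1 lies at an end of the control range for Slc1a3, Car14, Apoe and Clu (highest) and for Kcnj10, Sox9, Sox8 and Dkk3 (lowest).

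Glul (ENSMUSG00000026473; GRCm38 chr1:153899944-153909723, + strand) encodes glutamine synthetase, which converts the glutamate taken up by Müller glia into glutamine. Its level was 582, 538, 552 and 484 CPM in the 4 mutant samples and 416, 411, 407 and 370.1 CPM in the 4 control samples. Every Mettl3-CKO sample was above every control, and control replicate 1 lay next to the other controls. On average it stood at 539 ± 40.9 CPM in mutants against 401 ± 21.05 CPM in controls (SD, n = 4 each), a 1.34-fold difference with a log2 fold change of 0.43 ± 0.08 (SE), a 95% confidence interval of 0.24 to 0.61 and an edgeR adjusted p of 0.00865. Among the 9 tested genes 1 thus had all Mettl3-CKO samples above all controls and 0 had all below, beside 9.77% and 7.58% of all tested genes. The Glul call held whichever of the 8 samples was left out, with log2 fold changes of 0.39 to 0.47 and edgeR adjusted p-values of 0.00219 to 0.0316. A part of the Glul gene model, 116 of its 3323 exonic bases, is shared with Teddm2 on the opposite strand, which had 260 counts in all against 68618 for Glul.

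Of the 9 classes of cell type markers, 2 had genes called higher in the same comparison, the direction of Glul. Of 10 markers of dividing progenitors, 4 were higher (Mki67, Mcm2, Mcm5 and Birc5) and 0 were lower, and their summed level was 1521 to 1897 CPM in controls and 1999 to 2690 CPM in Mettl3-CKO, without overlap. The count of 4 was 2 without Mettl3-CKO replicate 1 or 2, and 5 without control replicate 1. Of 5 tested oligodendrocyte lineage markers, 2 were higher (Mog and Cspg4) while the summed level of the list overlapped, at 90.8 to 145 CPM in controls and 109 to 119.9 CPM in Mettl3-CKO; without control replicate 1 the same list had 2 higher and 1 lower. No marker of either list was at 0 in all samples, and the part of these cells in the Glul difference was not tested. In bulk retina, more cells of a type and more RNA per cell cannot be told apart.

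The sequences below show where the motif GGACT, the form of the m6A consensus that METTL3 methylates most readily at its adenosine, lies in the transcripts of the gene that was called (Glul), of the gene whose call depended on control replicate 1 (Car14) and of a pair that was not called (Sox9 and Dkk3). They were read, on the sense strand only and with no other motif searched, from 1 GENCODE vM21 (GRCm38) coding transcript per gene, with the motif in capitals and 10 bases on each side; for each gene other than Glul the site nearest to the stop codon is shown.
Glul, 3′ UTR, chr1:153908175-153908199, + strand: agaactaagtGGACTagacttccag
Glul, coding, chr1:153908030-153908054, + strand: cgcattccccGGACTgtcggccagg
Car14, coding, chr3:95900336-95900360, - strand: gcacctgggtGGACTgccccgaaaa
Sox9, 3′ UTR, chr11:112785865-112785889, + strand: ctgcctgtttGGACTttgtaattat
Dkk3, 3′ UTR, chr7:112117848-112117872, - strand: ttgcagacgtGGACTtggcaaaatg

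The first Glul motif began at base 3 after the stop codon, and the second began 143 bases before the base that follows the stop codon. Within a window of 400 bases centred on the end of the stop codon, the Glul transcript held 2 matches and those of the other 9 genes held 0. The closest match of Slc1a3 began 220 bases before the base that follows its stop codon. Of 12645 tested coding genes with a full window, 40.6% held at least 1 match and 10.2% held 2 or more. Over the whole transcript Glul had 4 matches, or 1.43 per kb, against a median of 1.05 per kb over tested coding genes and 0.667 (Sox8) to 1.19 per kb (Aqp4 and Dkk3) in the other 9. A match gives these letters in this transcript and not a methylated base, and m6A was not measured in these libraries.

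Slc1a3 (ENSMUSG00000005360; chr15:8634124-8710764, - strand) encodes the glutamate and aspartate transporter GLAST, which brings glutamate into Müller glia. Slc1a3 stood at 236, 195, 212 and 212 CPM in the 4 mutant samples and at 321, 233, 221 and 200.5 CPM in the 4 control samples. Control replicate 1 was the highest of all 8 samples, and the other 3 controls overlapped the Mettl3-CKO samples. The log2 fold change was -0.19 ± 0.13 (SE; 95% confidence interval -0.47 to 0.09; edgeR adjusted p = 0.397) over all samples and -0.03 ± 0.08 (SE; adjusted p = 0.821) without control replicate 1. Astrocyte markers moved in the same samples: 2 of 6 were lower (Gfap and Pdgfra), 0 were at 0 in all samples, and their sum was 216 CPM in control replicate 1, 95.3 to 119.8 CPM in the other controls and 55.3 to 84.0 CPM in Mettl3-CKO. Gfap lost its call without Mettl3-CKO replicate 2, 3 or 4 (adjusted p = 0.0673, 0.0631 and 0.0586) and Pdgfra without Mettl3-CKO replicate 1 or 2 (adjusted p = 0.0646 and 0.0554). The part of astrocytes in the Slc1a3 level was not tested.

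Glul and Slc1a3 act in series, and their ratio within a sample does not depend on scaling between libraries. The log2 ratio of Glul to Slc1a3 in FPKM (counts divided by gene length and by library total) was 2.66, 2.82, 2.74 and 2.56 in the 4 mutant samples and 1.74, 2.18, 2.24 and 2.25 in the 4 control samples. All Mettl3-CKO samples were above all controls, and control replicate 1 was the lowest. The difference was 0.60 on the log2 scale, a 1.51-fold higher ratio, with an exact permutation p of 0.0286 (two-sided, 70 splits), the smallest that 4 against 4 samples can give. Adjusted over the 4 ratios examined it was 0.114, above 0.05. With the p-values of the other ratios at 0.6 or more in the same test, no values of this ratio could have brought it under 0.05. Without control replicate 1 the difference was 0.47, and Mettl3-CKO remained above.

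**Figure D2:**
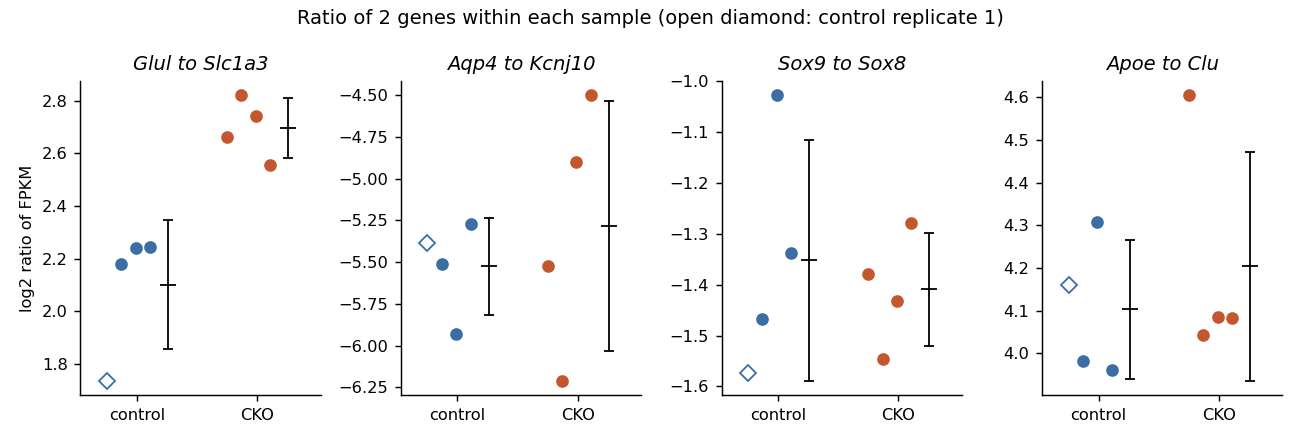
Log2 ratio of FPKM within each sample for 4 pairs of genes with related roles, in control (blue) and Mettl3-CKO (orange) retinas, with 1 point per sample, the open diamond for control replicate 1 and black bars for the mean ± SD of 4 samples; the y axes do not start at 0. The Glul to Slc1a3 ratio is 2.70 ± 0.11 in Mettl3-CKO and 2.10 ± 0.24 in controls without overlap, and the other 3 ratios overlap.

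The other genes of glutamate and GABA handling, 16 listed and 16 tested, had 0 higher and 2 lower, with a median log2 fold change of -0.11. Slc38a3, which encodes a glutamine transporter that releases glutamine from glia, fell by 0.54 on the log2 scale (edgeR adjusted p = 0.00125), from 192 to 211 CPM in controls to 133 to 147 CPM in Mettl3-CKO. Slc1a7, which encodes a glutamate transporter of retinal neurons, fell by 0.57 (edgeR adjusted p = 0.00323), from 67.8 to 81.1 CPM in controls to 49.2 to 58.7 CPM in Mettl3-CKO. Both kept their call in all 8 fits that left out 1 sample.

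Kcnj10 (ENSMUSG00000044708; chr1:172341210-172374085, + strand) encodes Kir4.1, the potassium channel through which Müller glia clear potassium. It ranged from 14.1 to 18.2 CPM in Mettl3-CKO and from 11.9 to 17.01 CPM in controls, control replicate 1 being the lowest, and the groups overlapped. Its log2 fold change was 0.16 ± 0.13 (SE; 95% confidence interval -0.13 to 0.44; edgeR adjusted p = 0.517), and 0.07 without control replicate 1.

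Aqp4 (ENSMUSG00000024411, mouse chromosome 18) encodes the water channel of glial endfeet. It had 6, 4, 10 and 12 counts in the 4 mutant samples and 5, 5, 5 and 6 counts in the 4 control samples, or 0.420 ± 0.166 CPM (SD, n = 4) and 0.299 ± 0.0458 CPM (SD, n = 4). Its counts were the lowest of the 10 genes, just above the 3 counts that a zero allows, and the groups overlapped. Fitted without the filter on low counts, its log2 fold change was 0.50 ± 0.57 (SE; edgeR adjusted p = 0.695), so no difference was detectable at this depth. The log2 ratio of Aqp4 to Kcnj10 was -5.28 ± 0.75 (SD, n = 4) in Mettl3-CKO and -5.53 ± 0.29 (SD, n = 4) in controls, with an exact permutation p of 0.6.

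Of 13 other genes of potassium, water and endfoot anchoring, 11 were tested, 1 was higher and 1 was lower, with a median log2 fold change of -0.15. Without control replicate 1 it was 1 higher and 2 lower, and without Mettl3-CKO replicate 1 it was 0 and 0. Dag1, which encodes dystroglycan, the receptor that anchors the endfoot to the basement membrane, was 1.40-fold higher (edgeR adjusted p = 0.0151), at 164 to 213 CPM in Mettl3-CKO against 114 to 151 CPM in controls, and lost its call without Mettl3-CKO replicate 1 (log2 fold change 0.46, adjusted p = 0.0669). Mlc1, which encodes a membrane protein of glial junctions, fell by 1.28 on the log2 scale (edgeR adjusted p = 0.0284). Mlc1 was at 27.0 CPM in control replicate 1, at 8.74 to 11.1 CPM in the other controls and at 3.65 to 6.95 CPM in Mettl3-CKO. Its call was lost without any 1 of the 4 Mettl3-CKO replicates, with adjusted p-values of 0.0556 to 0.0950 (replicates 4 and 1).

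Car14 (ENSMUSG00000038526; chr3:95897768-95904691, - strand) encodes a membrane-bound carbonic anhydrase that speeds the exchange of carbon dioxide and bicarbonate at the Müller cell surface. Car14 stood at 23.4, 14.7, 18.5 and 20.4 CPM in the 4 mutant samples and at 21.1, 13.9, 13.0 and 12.9 CPM in the 4 control samples. The Mettl3-CKO samples lay above control replicates 2 to 4, and control replicate 1 lay among the Mettl3-CKO samples. Over all samples the log2 fold change was 0.34 ± 0.18 (SE; 95% confidence interval -0.05 to 0.73), with an edgeR adjusted p of 0.270. Without control replicate 1 it was 0.54 ± 0.14 (SE; 95% confidence interval 0.24 to 0.84), 1.45-fold, with an adjusted p of 0.0172. Without both control replicates 1 and 4, a setting chosen after the data were seen, the log2 fold change was 0.52 with an adjusted p of 0.0624.

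Reads of Car14 are uncertain in part: 445 of its 2543 exonic bases (17.5%) lie on the strand opposite to exons of Aph1a, and the strand setting of the counting is not given in the sources used here. Aph1a had 8695 counts in all against 2531 for Car14, and its log2 fold change was -0.05 (edgeR adjusted p = 0.765). Of 14 other carbonic anhydrases and acid-base transporters, 12 were tested, 1 was higher and 1 was lower, with a median log2 fold change of -0.03. Slc16a1, which encodes the lactate transporter MCT1, was 1.79-fold higher (edgeR adjusted p = 9.83e-04), at 29.98 to 36.3 CPM in Mettl3-CKO against 15.9 to 20.996 CPM in controls, and kept its call in all 8 fits that left out 1 sample. Bsg, which encodes basigin, the membrane partner of that transporter, fell by 0.32 on the log2 scale (edgeR adjusted p = 0.0457). Bsg lost its call in 7 of the 8 fits that left out 1 sample, each except that without control replicate 1, with adjusted p-values of 0.0628 (without control replicate 3) to 0.145 (without Mettl3-CKO replicate 1).

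**Figure D3:**
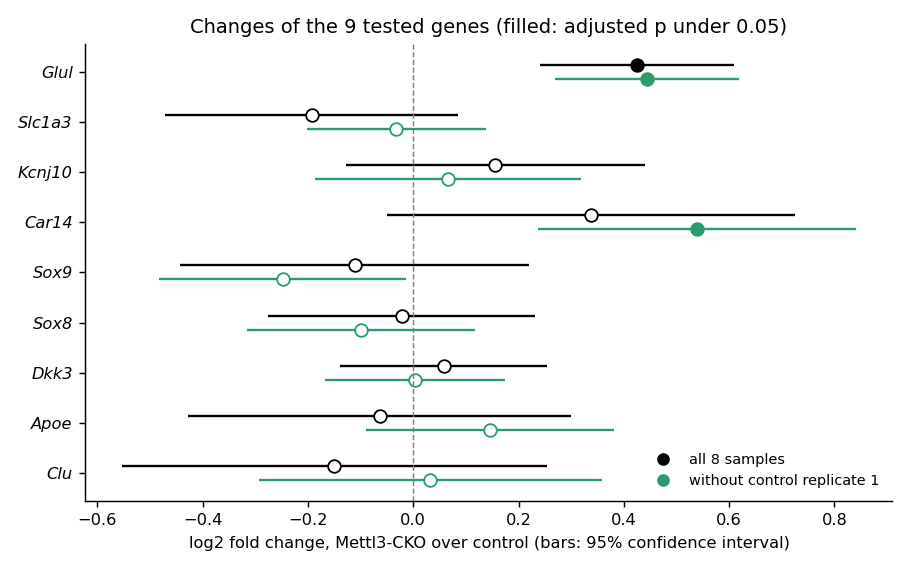
Log2 fold change of Mettl3-CKO over control (x axis) with its 95% confidence interval for the 9 tested genes, over all 8 samples (black) and without control replicate 1 (green); filled points have an edgeR adjusted p under 0.05. Glul is filled in both (0.43 and 0.44), Car14 is filled only without control replicate 1 (0.34 and 0.54), and Apoe and Clu cross from below to above 0.

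Sox9 (ENSMUSG00000000567; chr11:112782224-112787760, + strand) and Sox8 (ENSMUSG00000024176; chr17:25565892-25570686, - strand) encode related SoxE transcription factors, which are present in progenitors and stay on in Müller glia. Sox9 stood at 44.0, 46.2, 37.1 and 42.6 CPM in the 4 mutant samples and at 32.2, 41.7, 58.1 and 51.4 CPM in the 4 control samples. The controls spanned the whole range of the Mettl3-CKO samples, with control replicate 1 the lowest of all 8. The log2 fold change of Sox9 was -0.11 ± 0.15 (SE; 95% confidence interval -0.44 to 0.22; edgeR adjusted p = 0.714), -0.25 ± 0.11 without control replicate 1 (adjusted p = 0.136) and 0.03 without control replicate 3 (adjusted p = 0.948), so its direction rested on single controls. Sox8 ranged from 75.4 to 102 CPM in Mettl3-CKO and from 72.3 to 97.9 CPM in controls, with a log2 fold change of -0.02 ± 0.12 (SE; edgeR adjusted p = 0.937). The log2 ratio of Sox9 to Sox8 was -1.41 ± 0.11 (SD, n = 4) in Mettl3-CKO and -1.35 ± 0.24 (SD, n = 4) in controls, with an exact permutation p of 0.714.

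The 15 other gliogenic transcription factors and Notch pathway genes were all tested, with 1 higher, 0 lower and a median log2 fold change of 0.00. Without control replicate 1 it was 3 higher and 1 lower, and without Mettl3-CKO replicate 4 it was 3 higher and 0 lower. Lhx2, which encodes a homeodomain factor needed in progenitors and for Müller glial development, was 1.43-fold higher (edgeR adjusted p = 0.0312), at 176 to 249 CPM in Mettl3-CKO against 119 to 168 CPM in controls. Lhx2 lost its call without Mettl3-CKO replicate 1 (adjusted p = 0.125) or 2 (0.0900) and without control replicate 2 (0.0635) or 4 (0.0726). Hes1, the Notch effector, had a log2 fold change of 0.50 with an adjusted p of 0.0573, and Sox2 one of 0.43 with an adjusted p of 0.112, and neither passed the test. The markers of dividing progenitors given beside Glul were also higher in these samples, and their part in the Lhx2 difference was not tested.

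Dkk3 (ENSMUSG00000030772; chr7:112116017-112159057, - strand) encodes a secreted member of the Dickkopf family and had the highest level per length of the 10 genes. It ranged from 737 to 830 CPM in Mettl3-CKO and from 659 to 824 CPM in controls, with control replicate 1 the lowest, and its log2 fold change was 0.06 ± 0.09 (SE; 95% confidence interval -0.14 to 0.25; edgeR adjusted p = 0.756). Without control replicate 1 the log2 fold change was 0.00. Of 10 other Dickkopf family genes, receptors and secreted Wnt inhibitors, 6 were tested, and 0 were higher and 0 lower in edgeR. Their median log2 fold change was -0.18, and 1 of the 6, Kremen1, had an unadjusted p under 0.05 (log2 fold change -0.42, adjusted p = 0.0920). DESeq2 and limma voom each called 1 of the 6 as lower, as did edgeR without control replicate 1.

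Apoe (ENSMUSG00000002985; chr7:19696109-19699188, - strand) encodes apolipoprotein E, with which glia export cholesterol. Apoe stood at 311, 229, 335 and 345 CPM in the 4 mutant samples and at 447, 279.6, 274 and 273 CPM in the 4 control samples. Control replicate 1 was the highest of all 8 samples, control replicates 2 to 4 lay close together, and Mettl3-CKO replicate 2 was the lowest. The log2 fold change was -0.06 ± 0.17 (SE; 95% confidence interval -0.43 to 0.30; edgeR adjusted p = 0.865) over all samples, 0.15 ± 0.11 (SE; adjusted p = 0.394) without control replicate 1 and 0.05 (adjusted p = 0.895) without Mettl3-CKO replicate 2. Clu (ENSMUSG00000022037; chr14:65968483-65981547, + strand), which encodes the secreted chaperone clusterin, ranged from 20.6 to 32.7 CPM in Mettl3-CKO and from 22.2 to 40.2 CPM in controls, control replicate 1 again being the highest of all 8. Its log2 fold change was -0.15 ± 0.19 (SE; edgeR adjusted p = 0.680) over all samples and 0.03 without control replicate 1 (adjusted p = 0.907). The log2 ratio of Apoe to Clu was 4.20 ± 0.27 (SD, n = 4) in Mettl3-CKO and 4.10 ± 0.16 (SD, n = 4) in controls, with an exact permutation p of 0.6.

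In sum, microglial markers were also highest in control replicate 1, though not for every marker. For Aif1 and Cx3cr1 at least 1 Mettl3-CKO sample was higher. Their sum over 10 genes was 194 CPM in control replicate 1, 63.0 to 96.8 CPM in the other controls and 109 to 156 CPM in Mettl3-CKO, where replicate 2 was the lowest, as for Apoe. Over all samples 0 of the 10 were called higher or lower by edgeR, 1 of them, Cx3cr1, had an unadjusted p under 0.05 (log2 fold change 0.63, adjusted p = 0.150), and 7 of the 10 were called higher without control replicate 1. DESeq2 called 0 of the 10 and limma voom with sample weights called 9 of them higher. No microglial marker was at 0 in all samples, and the part of microglia in the Apoe level was not tested.

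The genes of lipoprotein and cholesterol transfer, 16 listed and 16 tested, had 0 higher and 5 lower, with a median log2 fold change of -0.28. Without control replicate 1 it was 1 higher and 7 lower (median -0.30), and without Mettl3-CKO replicate 1 only 1 gene was lower. It was 2 lower without Mettl3-CKO replicate 2 or 3 or without control replicate 2 or 3. Abca1, which encodes the exporter that loads cholesterol onto apolipoprotein E, was at 47.6, 43.9, 65.1 and 100.1 CPM in the 4 mutant samples and at 116, 100.45, 143 and 142 CPM in the 4 control samples. The groups nearly touched, Mettl3-CKO replicate 4 being just under control replicate 2. Abca1 fell by 0.97 on the log2 scale (edgeR adjusted p = 0.0164) and lost its call without Mettl3-CKO replicate 1 (adjusted p = 0.0815). Nr1h2, which encodes the oxysterol receptor LXR-beta, fell by 0.46 (edgeR adjusted p = 0.0106), and its call held in all 8 fits that left out 1 sample. Pltp, which encodes a phospholipid transfer protein, and Apod, which encodes apolipoprotein D, fell by 1.03 and 0.82 (adjusted p = 0.0302 and 0.0248) at levels of 1.05 to 4.43 CPM and 1.45 to 3.42 CPM over the 8 samples. Abcg4, which encodes a sterol exporter, fell by 0.32 (adjusted p = 0.0469). These 3 calls were lost in 6, 5 and 6 of the 8 fits that left out 1 sample, with adjusted p-values of up to 0.106, 0.0751 and 0.178, each reached without Mettl3-CKO replicate 1. The calls held without control replicate 1 for all 3, without control replicate 4 for Pltp and Apod, and without Mettl3-CKO replicate 4 for Apod and Abcg4. Endothelial markers, of which 6 of 7 tested were lower and 0 higher, moved in the same direction as this list. The count of 6 was 2 of 8 tested without Mettl3-CKO replicate 1, 2 or 3, and 4 without control replicate 2. Their sum of 545 to 646 CPM in controls and 534 to 629 CPM in Mettl3-CKO was mostly that of Kdr (548 ± 59.5 and 557 ± 41.0 CPM; SD, n = 4), which was not called. The called genes were low, as Flt1 at 6.06 ± 1.35 CPM in controls and 2.40 ± 0.508 CPM in Mettl3-CKO (SD, n = 4). The part of vessels in the lipoprotein list was not tested.

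Other genes known from Müller glia were counted in the same way. Of 14 listed, 13 were tested, 0 were higher and 4 were lower, with a median log2 fold change of -0.33. Both the absence of higher genes and the median rested on control replicate 1: without it 2 were higher and 4 lower, with a median of -0.19, and under limma voom with sample weights 2 were higher and 6 lower, with a median of -0.15. Rlbp1, which encodes CRALBP, the retinoid carrier of Müller glia and pigment epithelium, was at 71.4, 77.3, 108 and 121 CPM in the 4 mutant samples and at 341, 192, 192 and 190.4 CPM in the 4 control samples. Control replicate 1 was again far above the other controls, which still lay above all Mettl3-CKO samples. Rlbp1 fell by 1.28 on the log2 scale (edgeR adjusted p = 0.00305), and without control replicate 1 by 1.02. Dbi, which encodes a binding protein for acyl-CoA and benzodiazepines that is abundant in glia, fell by 0.88 (edgeR adjusted p = 0.00179), from 323 to 458 CPM in controls to 167 to 226 CPM in Mettl3-CKO. Cd9, which encodes a tetraspanin, fell by 0.67 (edgeR adjusted p = 0.00619), and Timp3, which encodes an inhibitor of matrix metalloproteinases, by 0.58 (edgeR adjusted p = 0.0159). Rlbp1, Dbi and Cd9 kept their calls in all 8 fits that left out 1 sample, and Timp3 lost its call without Mettl3-CKO replicate 1 (adjusted p = 0.0593). Vim, the intermediate filament gene vimentin, had a log2 fold change of -0.45 with an adjusted p of 0.0577 and did not pass the test.

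Markers of pigment epithelium, a tissue that also makes Rlbp1 and Timp3 and can adhere to the dissected retina, moved the same way. Of 7 tested, 4 were lower (Tyr, Tyrp1, Pmel and Ttr) and 0 were higher, none was at 0 in all samples, and the sum was 91.8 to 124 CPM in controls and 59.6 to 83.5 CPM in Mettl3-CKO, without overlap. The count of 4 was 1 without Mettl3-CKO replicate 1, and 2 without Mettl3-CKO replicate 4 or control replicate 2. Control replicate 1, with the highest Rlbp1, had nearly the same sum as control replicate 2, 123.89 against 123.86 CPM. The part of this tissue in the Rlbp1 and Timp3 differences was not tested.

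**Figure D4:**
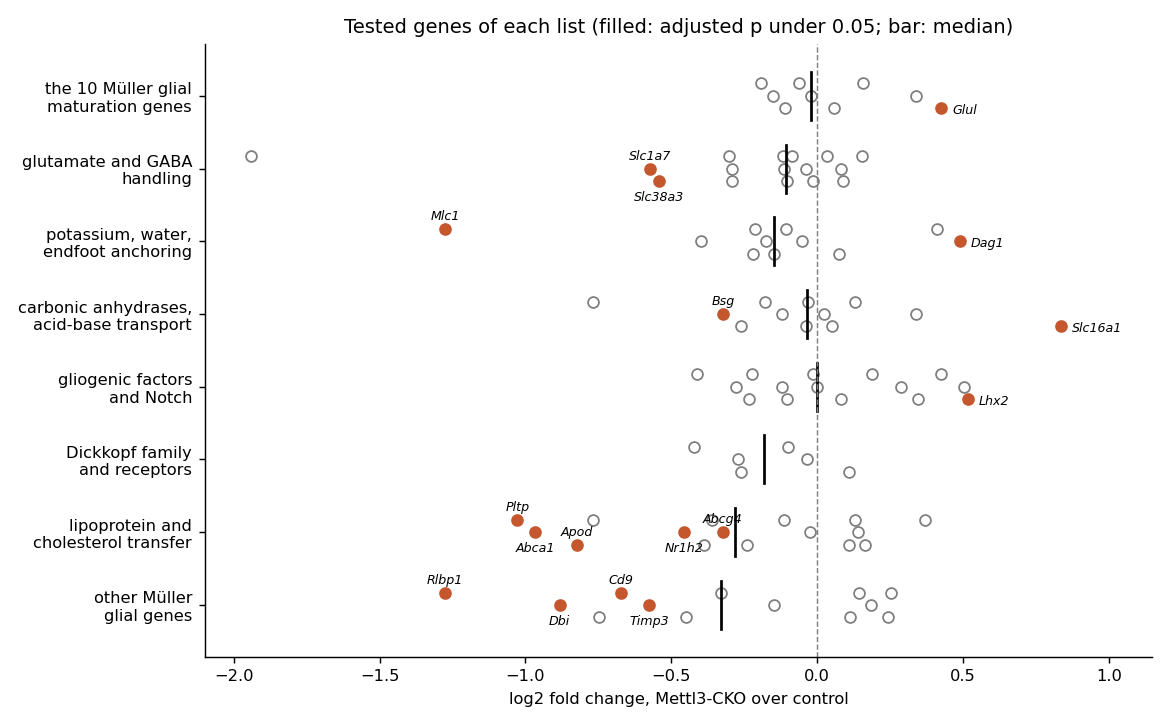
Log2 fold change of Mettl3-CKO over control (x axis) for the tested genes among the 10 and in 7 lists of genes with related roles, 1 point per gene, filled and named where the edgeR adjusted p is under 0.05, with a black bar at the median of each list; vertical offsets only separate points. Of 89 tested genes in the 7 lists, 3 are higher and 13 lower, beside 6.49% and 4.05% of all tested genes. The lowest medians are those of lipoprotein and cholesterol transfer (-0.28) and of the other Müller glial genes (-0.33, or -0.19 without control replicate 1).

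Compared per length, the levels in control retinas fell in the order Dkk3 (222 ± 23.9 FPKM; SD, n = 4 here and below), Apoe (148 ± 36.5 FPKM), Glul (120 ± 5.33 FPKM), Slc1a3 (28.4 ± 5.58 FPKM) and Sox8 (27.7 ± 3.86 FPKM). Sox9 (11.1 ± 2.84 FPKM), Clu (8.61 ± 2.02 FPKM), Car14 (5.95 ± 1.41 FPKM), Kcnj10 (2.70 ± 0.424 FPKM) and Aqp4 (0.0587 ± 0.00979 FPKM) followed. Neighbours whose FPKM ranges overlapped in controls were Dkk3 and Apoe, Slc1a3 and Sox8, Sox9 and Clu, and Clu and Car14, and the other neighbours did not overlap. In Mettl3-CKO, Glul (163 ± 12.1 FPKM) came before Apoe (143 ± 24.9 FPKM), with overlapping ranges, and Sox8 (27.5 ± 3.79 FPKM) before Slc1a3 (25.1 ± 2.08 FPKM), again overlapping. Apoe was above Glul in FPKM in 4 of 4 controls and in 1 of 4 Mettl3-CKO samples.

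How much of the spread among controls came from control replicate 1 differed between genes. Without it the control SD went from 85.7 to 3.38 CPM for Apoe and from 11.3 to 8.23 CPM for Sox9. For Glul alone among the 9 tested genes the SD rose, from 21.05 to 22.7 CPM. Of the 9 tested genes, control replicate 1 was the highest control for 5 (Glul, Slc1a3, Car14, Apoe and Clu), the lowest for 4 (Kcnj10, Sox9, Sox8 and Dkk3) and between the other controls for 0. It exceeded the mean of the other controls by 0.70 on the log2 CPM scale for Apoe, 0.67 for Car14, 0.62 for Clu and 0.56 for Slc1a3, but by 0.07 for Glul. It lay below that mean, with differences of -0.63 for Sox9, -0.39 for Kcnj10, -0.34 for Sox8 and -0.23 for Dkk3. The sign of the fitted log2 fold change turned without it for 2 of the 9 genes, Apoe and Clu, and a call was gained for Car14.

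**Figure D5:**
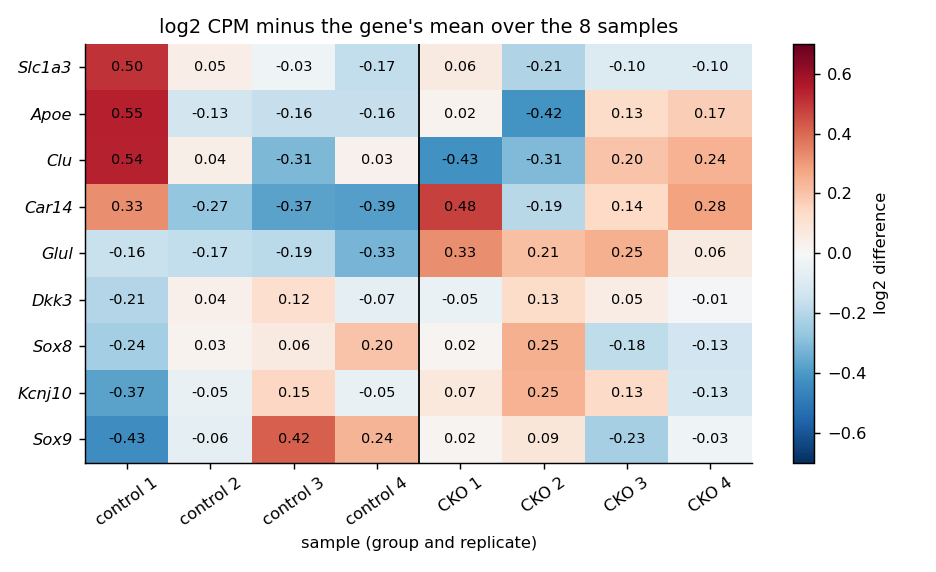
Log2 CPM of the 9 tested genes (rows) in the 8 samples (columns, controls left of the line), minus each gene's mean over the 8 samples, in colour and as printed numbers. Control replicate 1 has the highest value for Slc1a3 (0.50), Apoe (0.55) and Clu (0.54). It has the lowest for Sox9 (-0.43), Kcnj10 (-0.37), Sox8 (-0.24) and Dkk3 (-0.21). Glul is negative in all controls and positive in all Mettl3-CKO samples.

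Averaged over the 9 tested genes after centring and scaling each, and then scaled again, the profile was highest in Mettl3-CKO replicate 1 and lowest in control replicate 4. The 5 genes outside the list whose profiles were closest to it, among 14308 candidates (mean log2 CPM of 1 or more), were Slc18a2, Dusp14, Hsp90ab1, Gm45847 and Gm12411. Their root mean square distances over the 8 samples were 0.215, 0.216, 0.221, 0.240 and 0.254. The median over all candidates was 1.31, and the 5 lie below it by the way they were picked. Of the 5, Gm12411 passed the test (log2 fold change 1.75, edgeR adjusted p = 0.0366).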

How the data were processed

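Total RNA of 8 retinal samples was sequenced after library preparation with the NEBNext Ultra RNA kit. The authors filtered reads, mapped them to GRCm38 (mm10) with HISAT2 and deposited raw counts per gene from featureCounts, with the gene length in bases; the annotation release and the strand setting are not given in the sources used here. The submitters' processing notes also name CASAVA.

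Groups were taken from the sample labels. Genes were kept by filterByExpr by group (minimum count 10), scaled by TMM and compared with edgeR 4.0.16 (glmQLFit and glmQLFTest, group only, R 4.3.3), with Benjamini-Hochberg adjustment over 17998 genes and a threshold of 0.05. The biological coefficient of variation was 15%. Total counts of 16227095 to 20281517 per sample set the precision, and intervals cover the spread between samples as the fit estimates it. SE was taken as the log2 fold change over the square root of F. No 2 samples were duplicates (lowest chi-square per gene within a group 5.01). Within-sample ratios of FPKM were compared by two-sided exact permutation tests, adjusted over 4 pairs. On counts simulated for this comparison, with 17690 genes tested, edgeR called 73 of 96 genes changed 2-fold, 97 of 98 changed 4-fold and 8 unchanged genes.

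The 10 genes, the 7 lists of related genes, the 9 marker lists and the motif were chosen with earlier results of these data known. All 10 genes were named, together with the called genes of each list (at most 3 per direction, or all where the count was 5 or fewer) and the 5 closest profiles; Hes1, Sox2, Vim, Kremen1 and Cx3cr1 were named after their values were seen. The count of lens markers was 0 higher and 4 lower of 7 tested, with 0 lower without control replicate 4 (median log2 fold change -0.84 in place of -5.52), without any 1 Mettl3-CKO replicate, and under DESeq2 or limma voom. Rod markers were 0 higher and 5 lower of 10 (2 lower without Mettl3-CKO replicate 1 and 3 without replicate 2) and cone markers 0 and 1 of 6 (0 and 0 without Mettl3-CKO replicate 1 or 2 or control replicate 2 or 4). GENCODE vM21 held 54409 of the 54532 gene identifiers, 53499 with the same coordinates and strand, as for 9 of the 10 genes (all but Aqp4). Alternatives were DESeq2 1.42.0, limma 3.58.1 (voom with sample weights), other scalings and filters, a replicate block and leaving out samples.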

Additional observations from a re-analysis of the deposited data

Results flagged for a closer look

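In 4 of 26 groups of 4 values, 1 sample lay beyond Dixon's 95% critical value, where chance gives about 1.3. The log2 CPM of Car14 was 4.41 in control replicate 1, against 3.71 to 3.81 in the other controls. The log2 CPM of Apoe was 8.81 in control replicate 1, against 8.10 to 8.13 in the other controls. The log2 ratio of Glul to Slc1a3 was 1.74 in control replicate 1, against 2.18 to 2.25 in the other controls. The log2 ratio of Apoe to Clu was 4.60 in Mettl3-CKO replicate 1, with replicates 2 to 4 at 4.04 to 4.09. Of these 4, 3 fall in control replicate 1, which also had the highest share of mitochondrial counts of the 8 samples (2.38%), and the part of that share in these values was not tested.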

How the results depend on the processing

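Glul kept its call and direction under every alternative, with log2 fold changes of 0.39 to 0.47 and edgeR, DESeq2 or limma adjusted p-values of 1.98e-05 to 0.0316. Of 153 refits of the 9 tested genes, 138 kept direction and side of the threshold, 2 brought a call for Car14 (limma voom with sample weights and without control replicate 1) and 13 turned the sign of a gene that was not called in either fit. Under limma voom the log2 fold changes that turned were -0.0083 for Dkk3, 0.14 for Apoe and 0.053 for Clu. With both control replicates 1 and 4 left out, a setting chosen after seeing the data, they were -0.046 for Dkk3, 0.14 for Apoe and 0.085 for Clu. Leaving out 1 sample at a time gave -0.25 to 0.027 for Sox9, -0.12 to 0.043 for Sox8, -0.13 to 0.15 for Apoe and -0.26 to 0.033 for Clu. The differences of log2 ratios ranged from -0.018 to 0.55 for Aqp4 to Kcnj10, -0.13 to 0.051 for Sox9 to Sox8 and -0.032 to 0.17 for Apoe to Clu, while 3 against 4 samples cannot give a p under 0.0571. The number of the 10 genes called higher was 2 under limma voom and 1 to 2 when 1 sample was left out. Limma voom called 2142 genes higher and 1568 lower in all, 8 and 23 pathway genes, and 17 marker genes higher. Without the filter 5 pathway genes were higher, and without both control replicates 1 and 4 the markers numbered 13 higher and 13 lower. With 1 sample left out, 509 to 1882 genes were higher and 185 to 1289 lower, the fewest without Mettl3-CKO replicate 1 and the most without control replicate 1; of pathway genes 1 to 8 were higher and 6 to 18 lower, and of marker genes 4 to 14 higher and 6 to 27 lower. In the order of FPKM, the ranks of Slc1a3 and Sox8 moved between 4 and 5 in both groups, and those of Clu and Car14 between 7 and 8 in Mettl3-CKO. The cause of these shifts was not tested. For samples of the same replicate number, the correlations of deviations were -0.11, 0.21, -0.11 and 0.25. Of 4 samples, 2 correlated best with their own number. These few values do not settle whether replicate numbers pair the samples. The edgeR fit with a replicate block called 1198 genes higher and 660 lower, with Glul at 0.42 (adjusted p = 0.0109). With the replicate block, the paired exact test of the Glul to Slc1a3 ratio gave a p of 0.125, or 0.5 after adjustment. That p is the smallest that 4 pairs of samples can give, so this test could not have reached 0.05. Depth limits Aqp4, at 4 to 12 counts per library.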
